A study of Mus musculus with 12 samples.

Results

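The skeletal muscle contractile genes described here are 48 genes of the muscle sarcomere, its calcium supply and its upkeep, out of 22180 genes measured in mouse brown adipose tissue. They were listed by gene name and function, with earlier results of these data known, and each was read from the probe sets (groups of array probes for a transcript) that carry its symbol alone, taking the brightest over the 12 arrays. All 48 were measured, 4 of them (Myh8, Ryr1, Xirp2 and Tpm3) by several probe sets. The study compared wild-type (WT) mice with mice carrying a knockout (KO) of Zbtb7b, which encodes a zinc finger protein of the nucleus. All mice were male, 10 weeks old and on standard chow, and each genotype was kept either at 22 °C (called room temperature here) or at 4 °C for 4 h (called cold here). Each of the 4 groups had 3 whole-transcript arrays of total RNA. By title these are biological replicates, but a further label field numbers pools and names liver and a different knockout. The number of animals behind an array is therefore unknown, and p-values here measure only the spread of these samples.

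Skeletal muscle fibres contract when thick filaments of myosin pull on thin filaments of actin, both of which are anchored in repeating units called sarcomeres. Calcium released from the sarcoplasmic reticulum, an internal calcium store, starts each contraction by binding troponin on the thin filament. Fast and slow fibres use different genes for many of these parts. Brown fat is a heat-producing tissue that shares a developmental origin with skeletal muscle and lies against the muscles of the neck and back in mice. Brown adipocytes do not build sarcomeres.

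Promoters of muscle genes are known for short motifs: CANNTG, the E-box bound by myogenic factors of the MyoD family, the MEF2 site and the CArG box bound by serum response factor. RefSeq sequences of the assembly GRCm38.p6 were matched by symbol for 32 of the 48 members, in 40 start-site windows, and the 250 bases before each start were searched on both strands. CANNTG was found in 34 of the 40 windows (85.0%, against 66.2% of all 32851 windows). The form CAGCTG, each match of which is also a CANNTG match, was found in 16 (40.0% against 13.0%), the MEF2 site in 8 (20.0% against 2.92%) and the CArG box in 6 (15% against 1.47%). The members were listed for their role in muscle, so these shares describe the list. A match of letters is not a binding site. The 4 promoters below are shown because Acta1 and Myh4 had among the widest ranges over the arrays, while Myh1 and Myh8 are neighbours of Myh4 in the fast myosin cluster of chromosome 11 with a wide and a narrow range. Capitals mark CAGCTG, the MEF2 site and the CArG box.
Acta1, chr8:123894776-123895025, minus strand: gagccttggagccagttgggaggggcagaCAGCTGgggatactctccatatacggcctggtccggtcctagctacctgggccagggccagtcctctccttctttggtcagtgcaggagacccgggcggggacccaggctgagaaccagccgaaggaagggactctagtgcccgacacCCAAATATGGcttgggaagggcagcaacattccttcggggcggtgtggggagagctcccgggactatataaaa
Myh4, chr11:67237562-67237811, plus strand: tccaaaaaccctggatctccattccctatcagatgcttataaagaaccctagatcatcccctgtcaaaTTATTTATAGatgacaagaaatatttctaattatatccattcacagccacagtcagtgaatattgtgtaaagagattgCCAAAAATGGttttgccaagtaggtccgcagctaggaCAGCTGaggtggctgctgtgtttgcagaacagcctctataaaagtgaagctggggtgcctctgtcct
Myh1, chr11:67199852-67200101, plus strand: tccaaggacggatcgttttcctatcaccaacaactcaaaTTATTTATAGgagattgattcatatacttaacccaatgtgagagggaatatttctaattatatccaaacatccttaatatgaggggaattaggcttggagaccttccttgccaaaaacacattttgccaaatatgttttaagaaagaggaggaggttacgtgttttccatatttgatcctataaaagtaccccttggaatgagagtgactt
Myh8, chr11:67276874-67277123, plus strand: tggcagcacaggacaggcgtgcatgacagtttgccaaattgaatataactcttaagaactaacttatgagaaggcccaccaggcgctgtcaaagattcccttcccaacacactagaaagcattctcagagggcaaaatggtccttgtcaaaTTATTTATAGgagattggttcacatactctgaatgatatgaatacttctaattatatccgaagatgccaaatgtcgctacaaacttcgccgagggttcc
The Acta1 window held 1 CAGCTG and 1 CArG box, the Myh4 window held 1 of each of the 3 motifs, and the Myh1 and Myh8 windows held 1 MEF2 site each.

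The tissue carried the marks of brown fat on every array. The log2 signal of the uncoupling protein gene Ucp1 was 11.55 to 12.95, where the median signal of an array was 2.63 to 2.83. The hepatocyte list had 8 of its 10 genes under 4 on every array, among them albumin (Alb, 1.20 to 2.75). Zbtb7b was between 4.26 and 4.76 on the 6 WT arrays and between 2.96 and 3.62 on the 6 KO arrays, in the direction of the labels. The WT and KO values did not overlap. Whether its probes lie inside the deletion is not known here, so the size of the difference cannot be read as the extent of the loss. No label gave a date or a batch, and the way the fat was dissected is not given in the sources used here.

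Within each group the contractile genes differed widely between arrays, and on WT room temperature replicates 1 and 3 and KO room temperature replicate 3 their mean was near the array medians. The mean log2 signal of the 48 genes was 2.99, 4.86 and 3.0 on WT room temperature replicates 1, 2 and 3, and 6.66, 5.84 and 3.25 on the KO room temperature replicates. The mean was 4.07, 5.62 and 6.10 on the WT cold replicates and 6.72, 3.79 and 6.51 on the KO cold replicates. The lowest WT cold mean was above the lowest of each other group, and the 4 groups overlapped. The group means were 3.61 ± 1.08 (SD, n = 3) in WT and 5.25 ± 1.78 in KO at room temperature, and 5.26 ± 1.06 in WT and 5.67 ± 1.63 in KO in the cold. In RNA of whole tissue, fewer muscle cells and less RNA per muscle cell cannot be told apart.

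**Figure D1:**
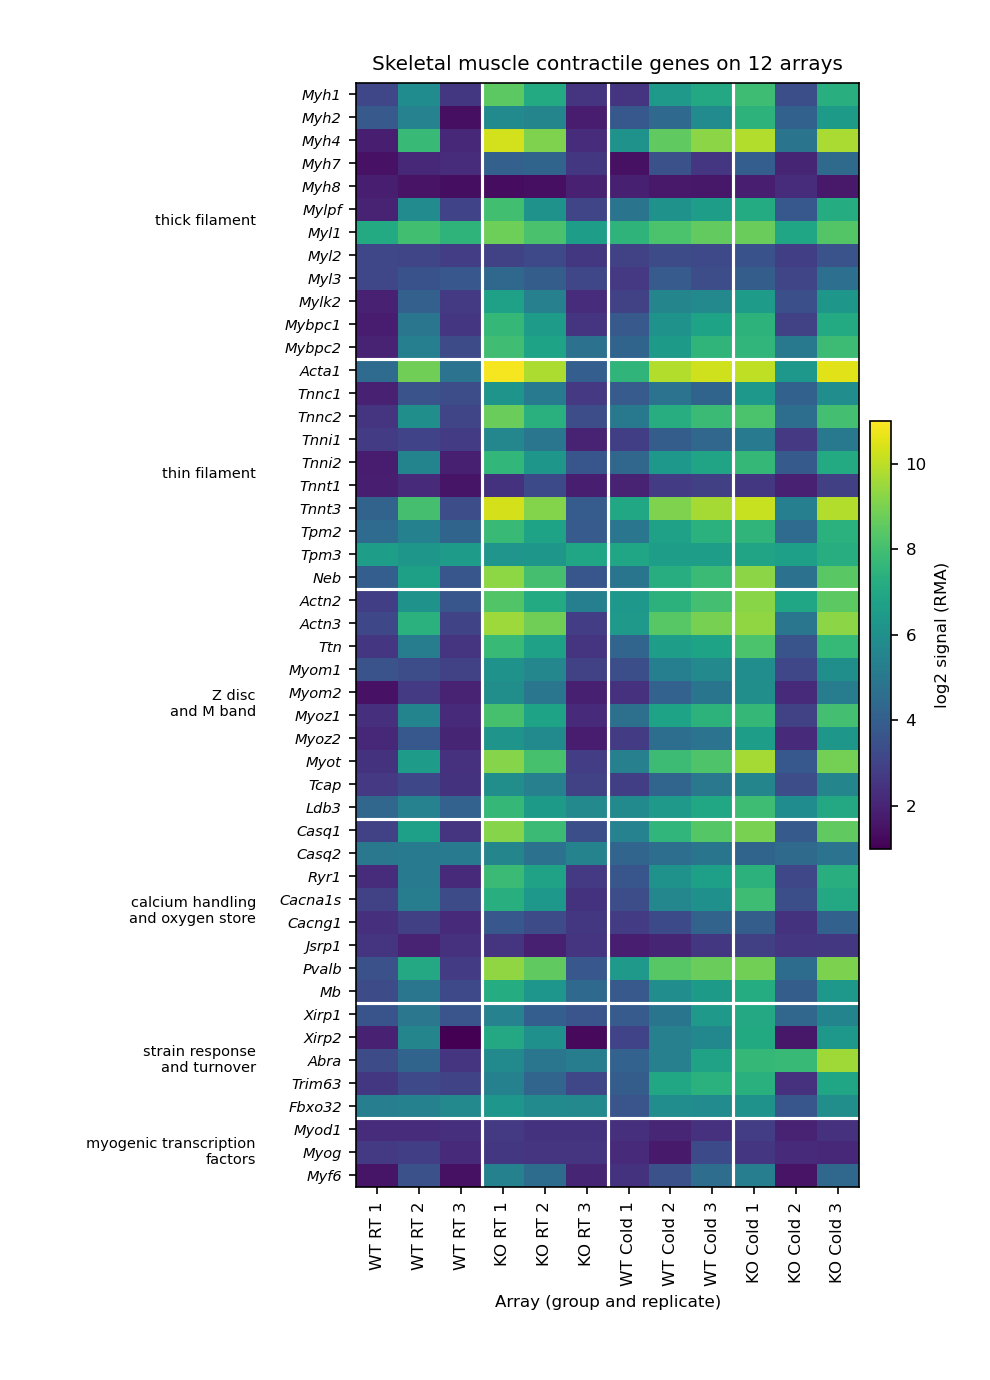
Log2 signal (colour, scale at the right) of the 48 contractile genes (rows, grouped by role) on the 12 arrays (columns, WT or KO, RT for room temperature, replicates 1 to 3; white lines part the groups). Most rows are bright on the same arrays, KO room temperature 1 and KO cold 1 and 3 above all, and dark on WT room temperature 1 and 3 and KO room temperature 3. Colours compare arrays within a row, not genes with each other.

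The spread between arrays of the same group was large for most of these genes, which is given as a description without a test. The SD of a gene around its 4 group means, called the within-group SD below, had a median of 1.57 over the 48 members and 0.219 over all 22180 genes. Of the 10 genes with the largest within-group SD, 7 were members, and 33 of the 100 largest were. The range over the 12 arrays reached at least 4 log2 units for 28 members (58.3%) and for 120 of all genes (0.541%). It stayed under 2 for 8 members. Of these, Myh8, Myl2, Tnnt1, Jsrp1, Myod1 and Myog were under 4 on every array, near the array medians, and Tpm3 and Casq2 were not.

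**Figure D2:**
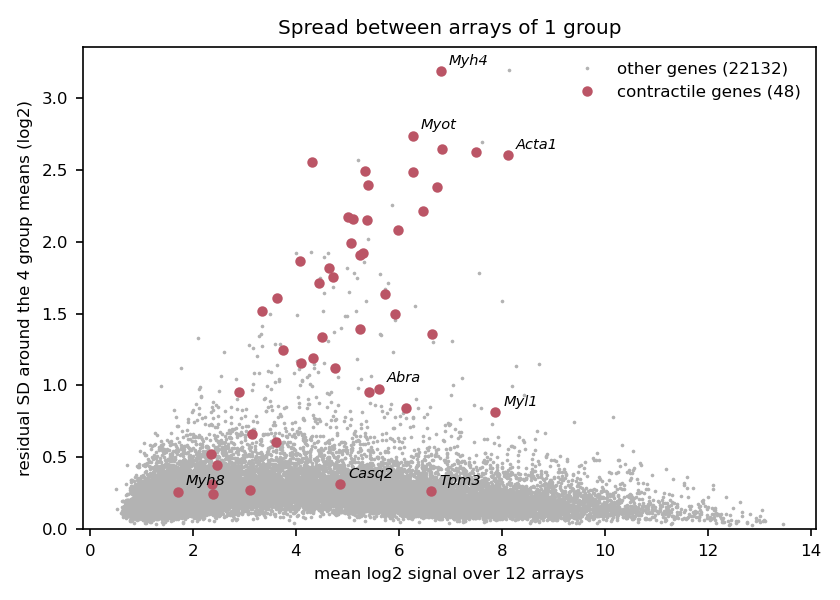
Within-group SD (SD around the 4 group means, log2) against mean log2 signal over 12 arrays, for the 48 contractile genes (large points) and the other 22132 genes (small points). Myh4 has an SD of 3.19, while Myh8, Casq2 and Tpm3 lie in the cloud of the other genes.

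The same arrays were high for most members. KO room temperature replicate 1 was the highest of all 12 arrays for 23 of the 48 genes and KO cold replicate 1 for 15. WT room temperature replicates 3 and 1 were the lowest for 16 and 11 genes, and KO room temperature replicate 3 for 10. Within the groups, WT room temperature replicate 2 was the highest of its 3 arrays for 38 members, KO room temperature replicate 1 for 43, WT cold replicate 3 for 41 and KO cold replicate 1 for 33. KO room temperature replicate 3 was the lowest of its group for 42 members, and WT cold replicate 1 and KO cold replicate 2 were the lowest of theirs for 44 each.

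The 12 thick filament genes encode myosin heavy chains, their light chains and the proteins that bind or modify them. Myh4, the heavy chain of the fastest fibres, read 1.84, 7.74 and 2.17 in WT and 10.33, 9.05 and 2.25 in KO at room temperature, and 6.14, 8.56 and 9.28 in WT and 9.83, 4.84 and 9.71 in KO in the cold. Its 3 values at room temperature in KO spanned 8.08 log2 units, from near the array median to the highest reading of the gene. Myh1, the heavy chain of another fast fibre type, read 3.12, 5.88 and 2.63 in WT and 8.48, 7.12 and 2.5 in KO at room temperature, and 2.49, 6.36 and 7.03 in WT and 7.88, 3.40 and 7.28 in KO in the cold. The high arrays were the same as for Myh4, and WT cold replicate 1 was the lowest of all. Myh2, the heavy chain of the fast oxidative fibres, read 3.8, 5.43 and 1.40 in WT and 5.78, 5.55 and 1.78 in KO at room temperature, and 3.74, 4.41 and 5.82 in WT and 7.47, 4.11 and 6.45 in KO in the cold. Its KO cold replicate 1 was the highest and WT room temperature replicate 3 the lowest, and every group overlapped every other. Myh1, Myh2, Myh4 and Myh8 are close relatives, and how far their probes cross-react was not tested.

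Heavy chains of other fibre types were low. Myh7, the heavy chain of slow fibres and of the heart, read 1.47, 2.11 and 2.28 in WT and 4.06, 4.23 and 2.63 in KO at room temperature, and 1.47, 3.48 and 2.57 in WT and 3.98, 2.03 and 4.46 in KO in the cold. It passed 4 on 3 arrays, all of them KO. Myh8, the heavy chain of newborn muscle, lay between 1.33 and 2.27, and its second probe set between 1.25 and 2.26. Of the light chains, Mylpf, the regulatory chain of fast fibres, read 1.97, 5.82 and 3.03 in WT and 7.97, 6.09 and 3.08 in KO at room temperature, and 4.86, 6.12 and 6.58 in WT and 7.14, 3.76 and 7.21 in KO in the cold. The light chain gene Myl1, also of fast fibres, was bright on every array and had a narrower range, from 6.61 to 8.81. The slow light chains Myl2 (2.63 to 3.57) and Myl3 (2.64 to 4.65) stayed low. Mylk2, a kinase of the regulatory chain, ranged from 1.90 to 6.72, the slow myosin-binding protein gene Mybpc1 from 1.78 to 7.67 and its fast relative Mybpc2 from 2.00 to 7.93. For these last 3 genes WT room temperature replicate 1 was the lowest array and KO room temperature replicate 1 the highest.

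The 10 thin filament genes encode actin, troponin, tropomyosin and nebulin. Acta1, the actin of skeletal muscle, read 4.50, 8.85 and 4.83 in WT and 10.88, 9.77 and 3.99 in KO at room temperature, and 7.54, 9.83 and 10.26 in WT and 10.06, 6.32 and 10.57 in KO in the cold. It was highest on KO room temperature replicates 1 and 2, WT cold replicates 2 and 3 and KO cold replicates 1 and 3, and KO room temperature replicate 3 was the lowest. Tnnt3, the fast troponin T that ties troponin to tropomyosin, read 4.19, 8.07 and 3.35 in WT and 10.37, 9.14 and 3.89 in KO at room temperature, and 6.95, 9.05 and 9.66 in WT and 10.17, 5.33 and 9.85 in KO in the cold. The 6 highest and the 3 lowest arrays were those of Acta1. The fast calcium-binding troponin Tnnc2 (2.51 to 8.73) and the fast inhibitory troponin Tnni2 (1.76 to 7.64) were lowest on WT room temperature replicate 1. Their slow counterparts Tnnc1 (1.92 to 6.32) and Tnni1 (2.01 to 5.64) spanned less, and slow Tnnt1 (1.57 to 3.24) was under 4 on every array. Neb, the giant ruler protein nebulin, ranged from 3.66 to 9.30, and Tpm2, a tropomyosin, from 3.88 to 7.72.

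Tpm3, a tropomyosin of slow fibres that many other cells also use, behaved differently by probe set. The brighter probe set read 6.56, 6.30 and 6.53 in WT and 6.21, 6.30 and 6.87 in KO at room temperature, and 6.92, 6.58 and 6.55 in WT and 6.83, 6.64 and 7.23 in KO in the cold. It stayed within 1.02 log2 units over all 12 arrays. The dimmer probe set, from 2.62 to 4.37, was lowest on WT room temperature replicate 3 and highest on KO cold replicate 3, with 3.98 on KO room temperature replicate 1. The brighter probe set had its lowest value on that array.

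The 10 genes of the Z disc, where thin filaments are anchored, and of the M band, where thick filaments are linked, had ranges of at least 3.17 without exception. Myot, the Z disc protein myotilin, read 2.45, 6.52 and 2.41 in WT and 9.18, 8.08 and 2.81 in KO at room temperature, and 5.35, 7.86 and 8.23 in WT and 9.64, 3.74 and 8.92 in KO in the cold. It was among the widest of the members, with a within-group SD of 2.74. Actn3, the alpha-actinin of fast fibres, read 3.17, 7.39 and 3.06 in WT and 9.54, 8.81 and 2.82 in KO at room temperature, and 6.35, 8.40 and 8.94 in WT and 9.34, 4.92 and 9.25 in KO in the cold. KO room temperature replicate 3 was the lowest, at 2.82, and replicate 1 of the same group the highest, at 9.54. Ttn, the giant spring protein titin, ranged from 2.5 to 8.17. The calsarcins Myoz1 and Myoz2, which bind calcineurin at the Z disc, ranged from 2.22 to 8.11 and from 1.81 to 6.56. The M band genes Myom1 (2.93 to 6.09) and Myom2 (1.5 to 5.95) and the titin cap Tcap (2.47 to 5.94) had lower peaks.

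Actn2, the alpha-actinin of all striated fibres, and Ldb3, a PDZ and LIM domain protein that binds it, did not have their lowest values on KO room temperature replicate 3. Actn2 read 2.87, 6.16 and 3.69 in WT and 8.29, 7.13 and 5.31 in KO at room temperature, and 6.34, 7.44 and 8.01 in WT and 9.21, 6.86 and 8.47 in KO in the cold. Ldb3 read 4.29, 5.44 and 4.13 in WT and 7.65, 6.47 and 5.72 in KO at room temperature, and 5.79, 6.38 and 6.95 in WT and 7.88, 5.85 and 7.04 in KO in the cold. For both, KO room temperature replicate 3 was above 2 or more other arrays, whereas Acta1 and Actn3 were at their lowest there. Other members were also above 2 or more other arrays there, among them Mybpc2 (4.74), Mb (4.40), Pvalb (3.73), Tnni2 (3.67), Casq1 (3.41) and Myh4 (2.25). Within its group that array was the lowest for Actn2 and Ldb3, as for 42 members in all. The 3 WT cold values of both genes were above their 3 WT room temperature values.

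Of the 8 genes for calcium handling and oxygen storage, 6 had a range of at least 2. Casq1, the calcium-storing calsequestrin of fast fibres, read 2.98, 6.63 and 2.53 in WT and 9.2, 7.82 and 3.41 in KO at room temperature, and 5.43, 7.56 and 8.37 in WT and 9.00, 3.83 and 8.56 in KO in the cold. Pvalb, the calcium buffer parvalbumin of fast fibres, read 3.49, 7.02 and 2.74 in WT and 9.35, 8.55 and 3.73 in KO at room temperature, and 6.35, 8.40 and 8.70 in WT and 8.88, 4.53 and 9.03 in KO in the cold. Both were high on KO room temperature replicates 1 and 2, WT cold replicates 2 and 3 and KO cold replicates 1 and 3. The release channel Ryr1 ranged from 2.24 to 7.80 by its brighter probe set, while the dimmer one stayed between 2.08 and 3.10. The voltage sensor subunit Cacna1s ranged from 2.46 to 7.90. Cacng1, another subunit of that sensor, ranged from 2.19 to 4.19, and the oxygen-binding myoglobin Mb from 3.19 to 7.20. The triad protein gene Jsrp1 was at 1.84 to 2.88. Casq2, the calsequestrin of slow fibres and the heart, read 5.0, 5.12 and 5.13 in WT and 5.55, 4.77 and 5.47 in KO at room temperature, and 4.25, 4.63 and 4.90 in WT and 4.21, 4.47 and 4.82 in KO in the cold. Its values did not follow those of Casq1, and all 3 WT cold values were below the 3 WT room temperature values.

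The 5 genes of strain response and protein turnover did not share 1 pattern. Xirp2, an actin-binding protein of muscle attachment sites, read 1.92, 5.55 and 0.94 in WT and 7.03, 6.02 and 1.27 in KO at room temperature, and 3.01, 5.36 and 5.66 in WT and 7.07, 1.64 and 6.32 in KO in the cold. It was lowest on WT room temperature replicate 3, KO room temperature replicate 3, KO cold replicate 2 and WT room temperature replicate 1. These are values of the brighter probe set of Xirp2, and the dimmer one stayed between 1.64 and 2.48. Xirp1, a relative of Xirp2, ranged from 3.62 to 7.03, with KO cold replicate 1 the highest. Trim63, the muscle ubiquitin ligase MuRF1, read 2.63, 3.22 and 3.07 in WT and 5.41, 4.24 and 3.14 in KO at room temperature, and 3.96, 6.96 and 7.38 in WT and 7.33, 2.41 and 6.89 in KO in the cold. It was high on WT cold replicates 2 and 3 and KO cold replicates 1 and 3, and KO cold replicate 2 was the lowest of all. Fbxo32, the ubiquitin ligase atrogin-1, read 5.30, 5.41 and 5.69 in WT and 6.26, 5.74 and 5.69 in KO at room temperature, and 3.64, 5.89 and 5.83 in WT and 6.12, 3.66 and 5.92 in KO in the cold. The 6 room temperature values lay within 5.30 to 6.26, and the lowest values were 3.64 on WT cold replicate 1 and 3.66 on KO cold replicate 2. These were the cold arrays with the lowest mean over the 48 genes in their groups.

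Abra, an actin-binding protein of striated muscle, departed from Acta1 on the KO arrays. It read 3.33, 4.21 and 2.55 in WT and 5.77, 4.91 and 5.25 in KO at room temperature, and 4.13, 5.36 and 6.78 in WT and 7.65, 7.75 and 9.58 in KO in the cold. The 3 KO cold values were above all 9 others, and KO room temperature replicate 3, where Acta1 was at its lowest, was above replicate 2 of its group for Abra. KO cold replicate 2, the lowest of its group for Acta1 and Myh4, was not the lowest for Abra. In WT cold the order of the 3 arrays was the same for both genes.

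Of the 3 myogenic transcription factors, Myod1 and Myog were under 4 on every array. Myod1 lay between 1.96 and 2.83 and Myog between 1.72 and 3.25. Myf6, the factor kept on in mature fibres, read 1.56, 3.47 and 1.46 in WT and 5.39, 4.55 and 2.05 in KO at room temperature, and 2.47, 3.49 and 4.57 in WT and 5.27, 1.51 and 4.36 in KO in the cold. Its high arrays were those of the contractile genes.

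**Figure D3:**
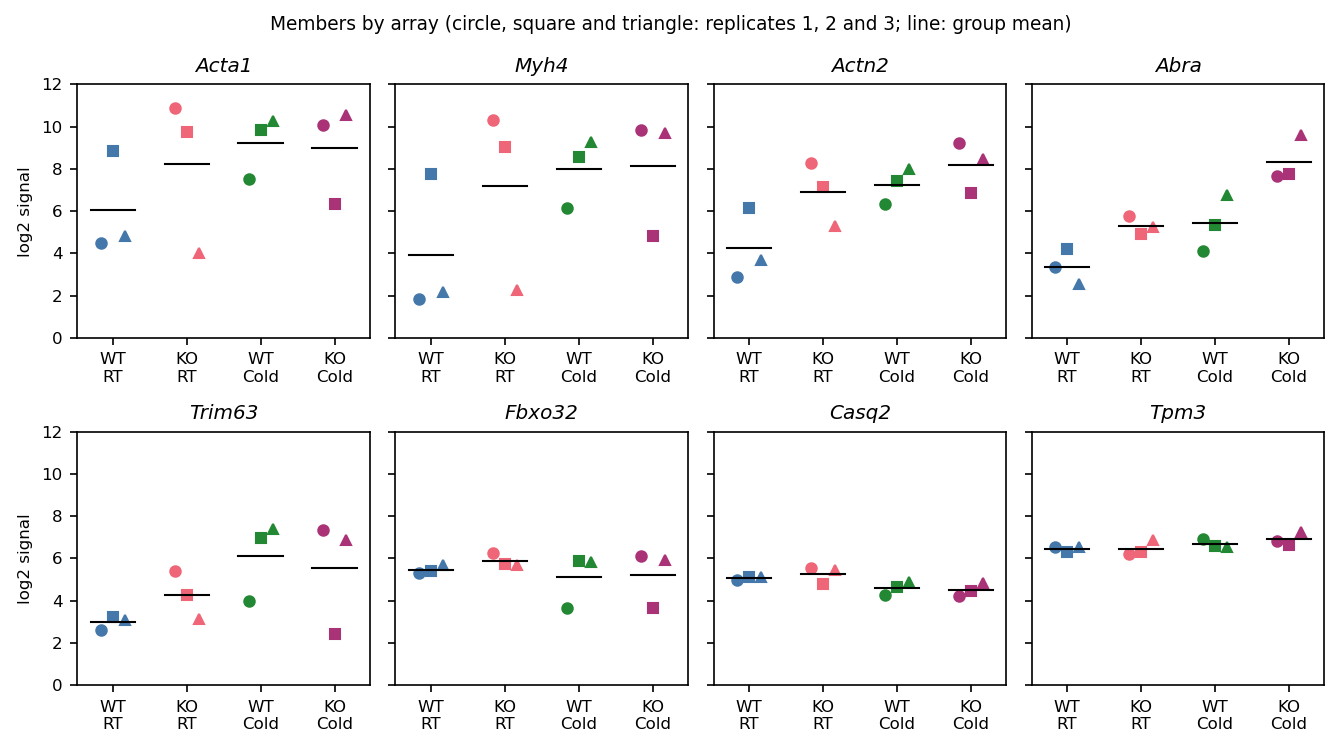
Log2 signal of 8 contractile genes in the 4 groups (WT or KO, RT for room temperature; circle, square and triangle are replicates 1, 2 and 3; the line is the group mean). Acta1, Myh4 and Actn2 vary widely within groups, Abra is highest in the 3 KO cold arrays, and Fbxo32, Casq2 and Tpm3 stay within narrower ranges.

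The genes taken as fast had a wider median range than those taken as slow. The 13 genes taken as fast had a median range of 6.07 log2 units and a median within-group SD of 2.38, and 12 of them had a range of at least 4, all except Myl1. The 10 taken as slow had a median range of 2.5 and a median SD of 0.778, with 3 ranges of at least 4 (Mybpc1, Tnnc1 and Myoz2). The slow class holds Myl2 and Tnnt1, under 4 on every array, where the fast class has 0 such genes. It also holds Tpm3 and Casq2, whose values did not follow those of most members. How far the contrast of the classes comes from the genes assigned to them was not tested. On KO room temperature replicate 1 the fast genes lay a median of 6.0 log2 units above the lowest array of each gene, and the slow genes 2.16. On KO cold replicate 3 these medians were 5.78 and 2.5, and on WT room temperature replicate 2 they were 3.85 and 0.90. On WT room temperature replicate 1 both were near 0, at 0.35 and 0.32. A gene whose lowest value is near the array median has no measured change below it, so these rises are not folds of RNA.

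**Figure D4:**
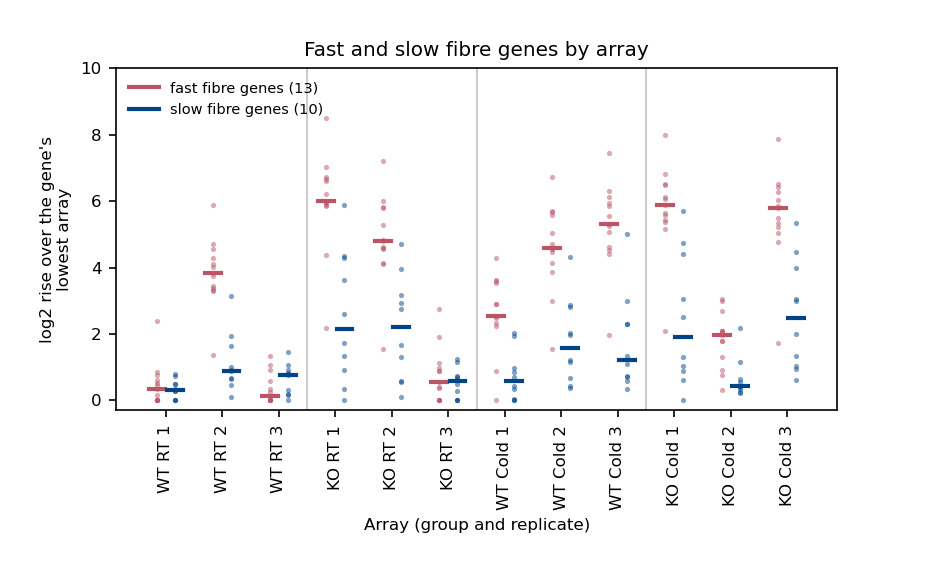
Rise in log2 signal over each gene's own lowest array for 13 fast fibre genes and 10 slow fibre genes on the 12 arrays (points are genes, bars are medians; RT is room temperature). The fast medians reach 6.0 on KO room temperature replicate 1 and the slow medians reach 2.5 on KO cold replicate 3.

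The means of the energy supply, assembly and sarcoplasmic reticulum lists were high on the same arrays, but not each gene of them was. The 10 genes of muscle energy supply had a mean of 4.34, 5.61 and 4.21 in WT and 7.79, 6.75 and 4.32 in KO at room temperature. The cold arrays gave means of 5.10, 6.57 and 6.93 for WT and 7.45, 4.35 and 7.36 for KO. The list holds Ckm, the muscle creatine kinase (3.58 to 10.47), Cox6a2, a muscle subunit of cytochrome oxidase (2.47 to 7.91), Ckmt2, the mitochondrial creatine kinase of muscle (1.95 to 7.26), and Ampd1, the muscle AMP deaminase (2.01 to 7.03). Fbp2, the muscle fructose bisphosphatase, chosen after its values were seen, differed from these. Its highest value (5.66) was on WT room temperature replicate 3 and its lowest (3.41) on KO cold replicate 1. Pfkm, another gene of the list and also chosen after its values were seen, stayed between 7.91 and 9.27. Its value on WT room temperature replicate 3 (8.94) was above that on KO cold replicate 1 (8.54). The calcium pump of fast fibres, Atp2a1, had the largest within-group SD of all 22180 genes, at 3.20, and ranged from 1.43 to 11.40. The 16 other measured genes of sarcomere and muscle assembly had a mean between 3.09 on WT room temperature replicate 1 and 6.09 on KO room temperature replicate 1. The 10 genes of the sarcoplasmic reticulum and the triad had a mean between 3.45 and 6.08. The mean of the 8 measured neuromuscular junction genes ran from 2.60 on WT room temperature replicate 2 to 3.56 on WT cold replicate 3. It was higher on KO cold replicate 2 (3.16) than on KO room temperature replicate 1 (3.08), unlike that of the members. Among the 8475 genes whose mean log2 signal reached 5, the 30 largest within-group SDs belonged to 17 members, 7 genes of these other muscle lists and 6 genes in neither. Of the latter, Hjv, Apobec2, Klhl31, 3425401B19Rik and Eef1a2 were highest on KO room temperature replicate 1 or KO cold replicate 1, like the members, and Gm3893 was not, with its highest value on KO room temperature replicate 2 and its lowest on KO cold replicate 2.

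Lists of other cells varied less within groups. The 7 muscle stem cell genes, Pax7 (2.42 to 3.02) among them, were all under 4 on every array, with a list mean of 1.90 to 2.16. Of 10 cardiac muscle genes, 7 were under 4 on every array, the list mean was 2.74 to 3.34, and the heart myosin Myh6 lay between 1.39 and 2.72. The cardiac actin Actc1 reached 6.30 on KO room temperature replicate 1. The smooth muscle list had a mean of 6.18 to 6.6, and the 9 genes that brown fat and muscle share, among them Ppargc1a, Atp2a2 and Esrrg, had a mean of 9.37 to 9.90 with a median within-group SD of 0.136. The mean of the 11 brown adipocyte genes at room temperature was 8.46 to 8.63 over the WT arrays and 7.78 to 8.0 over the KO arrays. Cold WT arrays had 9.02 to 9.13 and cold KO arrays 8.88 to 9.07. On KO room temperature replicates 1 and 3, whose means over the contractile genes were 6.66 and 3.25, the brown adipocyte means were 7.98 and 7.78. The white adipocyte list had a mean of 6.46 to 7.49 over the 12 arrays and the macrophage list 6.06 to 7.46.

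**Figure D5:**
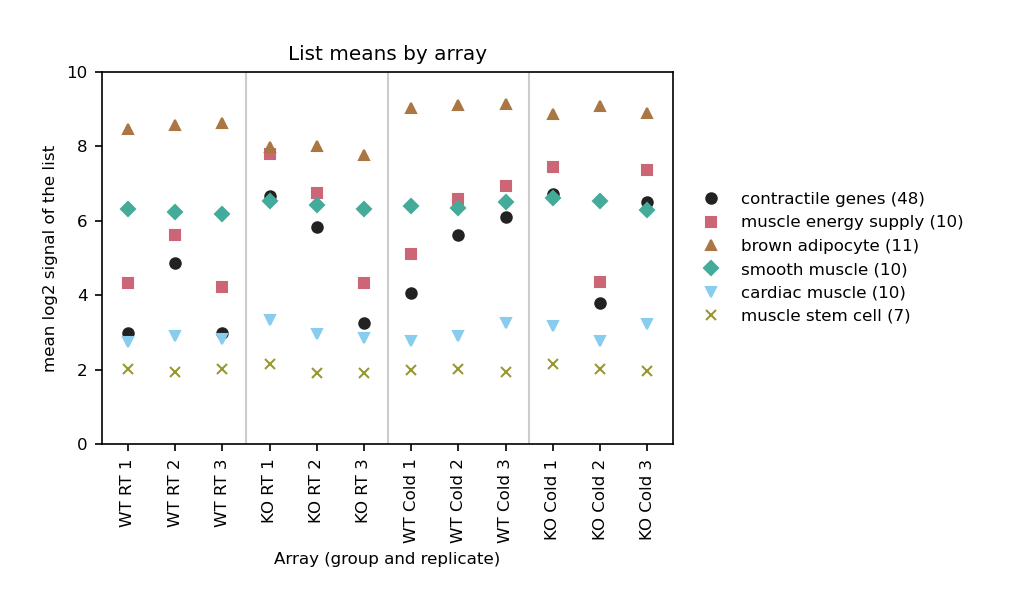
Mean log2 signal of 6 gene lists on the 12 arrays (number of measured genes in brackets; RT is room temperature). The contractile genes and the muscle energy supply genes move together from array to array within groups, from 2.99 to 6.72 and from 4.21 to 7.79, while the muscle stem cell list stays between 1.90 and 2.16. Levels of different lists are not comparable.

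The comparison of genotypes at room temperature asked what loss of Zbtb7b changed in resting brown fat. None of the 48 genes passed, that is 0 at an adjusted p under 0.05 by limma with Benjamini-Hochberg adjustment over all genes, where 0.550% of all genes did. The median difference was 1.95 log2 units toward KO over the members and 0.0085 over all genes, and 44 of the 48 differences were above 0. At an unadjusted p under 0.05 there were 8 members, against 11.4% of all genes. The largest difference was that of Myh4 (3.30 ± 2.12, SE, n = 3 per group, adjusted p = 0.612), and its group means were 3.91 for WT and 7.21 for KO. Acta1 differed by 2.16 ± 1.73 (adjusted p = 0.706). The smallest adjusted p was that of Ldb3 (1.99 ± 0.57, adjusted p = 0.168). The KO arrays lay wholly above the WT arrays for 4 members (Myh7, Ldb3, Abra and Myod1), against 9.00% of all genes (17.0% in either direction), and overlapped with them for 44.

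The median difference at room temperature moved with single arrays. It was 0.98 without KO room temperature replicate 1 and 2.89 without KO room temperature replicate 3. With the muscle energy supply mean of each array as a covariate, a setting chosen after seeing the data, it was 0.029 and 0 members passed. In that fit Myh4 differed by -0.065 ± 0.82 and Acta1 by -0.61 ± 0.62. The energy supply genes are muscle genes too, and their median difference in this comparison was 1.92, near that of the members. The covariate removes any difference shared by both lists, so this fit cannot tell where such a difference came from. The energy supply mean ranged over 4.21 to 5.61 in WT and 4.32 to 7.79 in KO at room temperature. The mean of the 10 macrophage genes ranged over 6.06 to 6.37 in WT and 6.8 to 7.01 in KO, and its part in these differences was not tested.

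In the cold the genotypes differed by a median of 0.29 over the members, with 38 of 48 above 0, against 0.0096 over all genes. By limma 0 members passed, where 0.911% of all genes did, and 2 had an unadjusted p under 0.05, against 14.4% of all genes. Abra had the smallest adjusted p (2.91 ± 0.66, adjusted p = 0.0661), and its mean was 5.42 ± 1.33 (SD) over the WT arrays and 8.33 ± 1.08 over the KO arrays. It was the only member whose KO arrays all lay above the WT arrays, where 9.55% of all genes did so and 20.6% did not overlap in either direction. The difference was 2.26 without WT cold replicate 1 (adjusted p = 0.224) and 2.28 without KO cold replicate 3 (adjusted p = 0.149). Abra passed without WT cold replicate 3 (3.58, adjusted p = 0.0440), when genes with a mean signal under 5 were left out (adjusted p = 0.0339) and with the energy supply covariate (2.84, adjusted p = 0.0405). Its adjusted p over the alternatives was 0.0339 to 0.224. Acta1 (-0.23 ± 1.73) and Myh4 (0.14 ± 2.12) had errors far larger than their differences. The median turned to -0.24 without WT cold replicate 1, was -0.15 without KO cold replicate 1 and 0.0017 without KO cold replicate 3, and was 0.78 without WT cold replicate 3, 0.50 without WT cold replicate 2 and 1.39 without KO cold replicate 2.

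The comparison of temperatures in WT asked what 4 h of cold changed, and it shares the WT room temperature arrays with the genotype comparison above. By limma 2 of the 48 members rose, Actn2 and Abra, where 17.4% of all genes passed in either direction and 9.39% rose. The median difference was 1.61 over the members, with 42 above 0, and -0.017 over all genes, and 6 members had an unadjusted p under 0.05, against 28.9% of all genes. The median was 2.35 without WT cold replicate 1, 1.18 without WT cold replicate 3 and 0.16 with the energy supply covariate. The 3 cold arrays lay wholly above the 3 room temperature arrays for Tnnc1, Actn2, Ldb3 and Trim63 and below them for Casq2, which is 4 and 1 of 48, against 18.8% and 18.0% of all genes and 36.8% in either direction. The energy supply mean ranged over 4.21 to 5.61 at room temperature and 5.10 to 6.93 in the cold. Of the 10 macrophage genes 5 rose (C1qa, C1qb, C1qc, Cd163 and Cd68), with a list median of 0.49 and list means of 6.06 to 6.37 at room temperature and 6.59 to 6.89 in the cold. The part of that list in these differences was not tested.

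Actn2 rose in the WT cold arrays by 3.02 ± 0.90 (SE, n = 3 per group, adjusted p = 0.0371) from a group mean of 4.24, with 2 of its 3 values under 4, to 7.26. It did not pass without WT room temperature replicate 1 (2.34, adjusted p = 0.143), WT room temperature replicate 3 (2.75, 0.109), WT cold replicate 2 (2.94, 0.101) or WT cold replicate 3 (2.65, 0.131), and over the alternatives the adjusted p was 0.00998 to 0.143. The difference was 3.98 without WT room temperature replicate 2 (adjusted p = 0.00998), and with a trended and robust spread Actn2 did not pass (adjusted p = 0.0926). With the energy supply covariate the difference was 1.74 ± 0.48 (adjusted p = 0.0269). In that fit Ldb3 was higher as well (0.92, adjusted p = 0.0321) and Cacna1s lower (-0.90, adjusted p = 0.0275), whereas without the covariate Cacna1s stood at 1.20 ± 1.33 (adjusted p = 0.628). In the fit without the covariate Ldb3 stood at 1.75 ± 0.57 (adjusted p = 0.0525) and Trim63 at 3.13 ± 1.17 (adjusted p = 0.0899). Ldb3 passed without WT room temperature replicate 2 (2.16, adjusted p = 0.0369) and, with the difference still 1.75, without KO room temperature replicate 1 (0.0351) or 3 (0.0430) or KO cold replicate 1 (0.0357) or 2 (0.0322). Ldb3 also passed with a mean signal of at least 5, median centring, array weights or the arrays of the comparison alone. Its lowest adjusted p over the alternatives was 0.0156. Trim63 passed without WT cold replicate 1 (4.20, adjusted p = 0.0372) and without KO cold replicate 2 (3.13, 0.0171). It also passed in the fit to the arrays of the comparison alone.

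Abra rose in the WT cold arrays by 2.06 ± 0.66 (adjusted p = 0.0488), from a group mean of 3.36, which is low, to 5.42. WT cold replicate 1 (4.13) overlapped with WT room temperature replicate 2 (4.21). The difference lay between 1.38 and 2.71 and the adjusted p between 0.0175 and 0.193 over the alternatives. Abra did not pass under cyclic loess (adjusted p = 0.0573), with a trended and robust spread (0.0782) or in the fit to the arrays of the comparison alone (0.0585). It was 0.112 without WT room temperature replicate 1, 0.163 without WT room temperature replicate 3, 0.108 without WT cold replicate 2 and 0.193 without WT cold replicate 3. It was 0.0589, 0.0595 and 0.0631 without KO room temperature replicates 1, 2 and 3, and 0.0554 without KO cold replicate 2, since the KO arrays share the estimate of the spread. With the energy supply covariate Abra stood at 1.5 ± 0.63 (adjusted p = 0.139).

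The comparison of temperatures in KO uses the KO room temperature and KO cold arrays, each of which also enters a genotype comparison. By limma 1 of the 48 members rose (Abra) and 1 fell (Casq2), where 19.2% of all genes passed, 8.34% higher and 10.8% lower. The median difference was 0.33 over the members, with 40 above 0, and 0.0039 over all genes. At an unadjusted p under 0.05 there were 3 members, against 29.8% of all genes. The KO cold arrays lay wholly above the KO room temperature arrays for Jsrp1 and Abra, 2 of 48, against 14.4% of all genes and 31.6% in either direction. The median was 1.22 without KO room temperature replicate 1, 0.69 without KO room temperature replicate 2, 1.48 without KO cold replicate 2, -0.77 without KO room temperature replicate 3, -0.22 without KO cold replicate 1 and -0.12 without KO cold replicate 3. The energy supply mean ranged over 4.32 to 7.79 at room temperature and 4.35 to 7.45 in the cold.

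Abra rose in the KO cold arrays by 3.02 ± 0.66 (adjusted p = 0.00627), an 8.11-fold higher signal, from a group mean of 5.31 to 8.33. The lowest KO cold value was 7.65 and the highest KO room temperature value 5.77. It passed in each of the 12 fits that left out 1 array, with differences of 2.39 to 3.36 and adjusted p-values of 0.00335 to 0.0280, and with the energy supply covariate (2.98 ± 0.57, adjusted p = 0.0035). The rise of Abra with cold in KO exceeded that in WT by 0.96 ± 0.93 (adjusted p = 0.745), so a difference between the genotypes in this response was not detectable.

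Casq2 fell in the KO cold arrays by 0.76 on the log2 scale (SE 0.23, adjusted p = 0.0348), from a group mean of 5.26 to 4.50, and KO cold replicate 3 (4.82) overlapped with KO room temperature replicate 2 (4.77). It stood at -0.49 ± 0.23 in WT (adjusted p = 0.182). The fall in KO did not pass without KO room temperature replicate 1 (-0.62, adjusted p = 0.127), KO room temperature replicate 3 (-0.66, 0.120), KO cold replicate 1 (-0.62, 0.121) or KO cold replicate 2 (-0.75, 0.0857), and the adjusted p over the alternatives was 0.00863 to 0.127. It did not pass under cyclic loess (-0.63, adjusted p = 0.0758), median centring (-0.69, 0.0557), array weights (-0.75, 0.0525) or in the fit to the arrays of the comparison alone (-0.76, 0.0959). With the energy supply covariate it was -0.77 ± 0.23 (adjusted p = 0.0389). Leaving out KO cold replicate 2 brought Trim63 and Myl2 past the threshold in this comparison, and leaving out KO room temperature replicate 3 brought in Tpm3.

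The interaction asked whether cold acted differently in KO and WT. By limma 0 of the 48 members passed, where 0.0271% of all genes did, and 0 had an unadjusted p under 0.05. The median over the members was -1.34, with 40 of 48 below 0, and -0.011 over all genes, and the smallest adjusted p was 0.560. The median was -0.27 without KO cold replicate 2, -0.53 without KO room temperature replicate 1, -0.79 without WT cold replicate 3, -2.10 without WT cold replicate 1 and -2.41 without KO room temperature replicate 3. With the energy supply covariate it was 0.035.

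By fibre type, the 13 fast genes had median differences of 2.60 between genotypes at room temperature, 0.14 between genotypes in the cold, 2.84 with cold in WT and 0.34 with cold in KO. The 10 slow genes had 0.99, 0.42, 0.61 and 0.18. By limma 0 fast genes passed in these 4 comparisons, where 0.550%, 0.911%, 17.4% and 19.2% of all genes did. At an unadjusted p under 0.05 there were 2, 0, 2 and 0 fast genes, against 11.4%, 14.4%, 28.9% and 29.8% of all genes. Casq2 in KO was the only slow gene that passed. The comparisons share arrays, so these medians are not independent of each other. Of the roles, the strain response and turnover genes had the highest median with cold in KO, at 1.26, and the Z disc and M band genes the highest at room temperature between genotypes, at 2.21.

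Of the other muscle genes, 0 of 10 in energy supply, 0 of 16 in sarcomere and muscle assembly and 0 of 10 in the sarcoplasmic reticulum and triad passed in any of the 5 comparisons by limma. Of all genes 0.550% passed between genotypes at room temperature and 0.911% in the cold. With cold 17.4% passed in WT and 19.2% in KO, and in the interaction 0.0271% did. At an unadjusted p under 0.05 there was 1 gene of the sarcoplasmic reticulum and triad between genotypes at room temperature and 1 with cold in WT, and 0 in the other comparisons of these lists. The shares of all genes at that level were 11.4% between genotypes at room temperature and 14.4% in the cold. With cold they were 28.9% in WT and 29.8% in KO, and in the interaction 10.5%. The list medians at room temperature between genotypes were 1.92, 1.09 and 0.82, and with cold in WT 1.90, 0.97 and 0.65. Of the 8 measured neuromuscular junction genes, Chrnb1, an acetylcholine receptor subunit, rose with cold in both genotypes. It read 4.00, 4.38 and 4.90 in WT and 5.01, 4.61 and 5.48 in KO at room temperature, and 6.47, 6.53 and 6.74 in WT and 6.77, 6.91 and 7.33 in KO in the cold. All 6 cold values were above the 6 room temperature values. The rise was 2.15 ± 0.25 in WT (adjusted p = 1.7e-04) and 1.97 ± 0.25 in KO (adjusted p = 2.4e-04). Dok7, an activator of the receptor kinase at the junction, rose with cold in KO by 0.92 ± 0.26 (adjusted p = 0.0269), from values of 3.02 to 3.17 to values of 3.26 to 4.45. Of the cardiac list, Myl4, a light chain of atrial and embryonic muscle (3.66 to 5.47), rose with cold by 1.37 ± 0.20 in WT (adjusted p = 6.8e-04) and by 1.27 ± 0.20 in KO (adjusted p = 9.8e-04), and was the only gene of that list that passed by limma. Of the 10 smooth muscle genes, 1 was higher in KO at room temperature and 1 fell with cold in WT by limma. With cold in KO 1 rose and 1 fell, and 0 passed between genotypes in the cold and in the interaction.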

How the data were processed

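The values are those the authors deposited for 12 arrays, on a log2 scale. Per the submitters' processing notes the tools were oligo, RMA and limma. RMA gives all arrays 1 common distribution, so a shift shared by most genes would be removed. The scale is not written with the deposited log2 values and was checked against their range. Used here were the 23521 of 41345 probe sets annotated with a single gene symbol. Where a gene had several (1082 genes), its brightest stood for it, and all 22180 genes were tested whatever their signal.

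The fit in limma 3.58.1 (R 4.3.3) had 4 group means over the 12 arrays (eBayes, two-sided, Benjamini-Hochberg over all genes, threshold 0.05). Each group has 3 arrays, and their number limits the precision. Where a group mean was under 4, differences are given without a fold.

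Genes the text could name were all 48 members, up to 4 genes of each other list with the widest range over the arrays (any gene of the brown adipocyte, white adipocyte, macrophage and hepatocyte lists), the 15 other genes with the largest within-group SD among those with a mean of at least 5, and Zbtb7b. Fbp2 and Pfkm of the energy supply list were named outside that rule. The members and lists were chosen with earlier results of these data known. Alternatives were averaging the probe sets of a gene, a mean signal of at least 5, cyclic loess, median centring, array weights, a block for the replicate number, a trended and robust spread, fits to the arrays of 1 comparison, and leaving out each of the 12 arrays in turn. The energy supply mean as a covariate was added after seeing the data.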

Additional observations from a re-analysis of the deposited data

How the results depend on the processing

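Leaving out each array in turn gave 0 members passed between genotypes at room temperature and in the interaction throughout, 0 to 1 between genotypes in the cold, 0 to 3 with cold in WT and 1 to 3 with cold in KO. Of all 22180 genes, 50 to 164, 3 to 20, 36 to 289, 2676 to 4308 and 3200 to 4320 passed, in the same order. The medians over the members then ranged over 0.98 to 2.89, -0.24 to 1.39, 1.18 to 2.35, -0.77 to 1.48 and, for the interaction, -2.41 to -0.27. With cold in WT the count was 1 under cyclic loess, 0 with a trended and robust spread and 0 with the replicate number as a block, in place of 2, and 3 with a mean signal of at least 5, median centring, array weights, the arrays of the comparison alone and the covariate. Of all genes 3852 passed in the main fit, and 3871, 3927 and 3660 in the first 3 of these settings. In the settings with 3 members, 3691 of 8475, 3575, 4846, 4442 and 3721 genes passed, in the order given. With the block Abra (adjusted p = 0.0568) and Actn2 (0.0597) did not pass. With cold in KO the member count was 1 rather than 2 with a mean signal of at least 5, cyclic loess, median centring, array weights or the arrays of the comparison alone, Casq2 being the gene that dropped out (with a mean of at least 5 it was not tested). Of all genes 3856 of 8475, 4306, 4017, 4238 and 2737 passed there, in the same order, and 4254 in the main fit. Between genotypes in the cold the member count was 1 with a mean signal of at least 5 and with the energy supply covariate. There 397 of 8475 and 243 of 22180 genes passed, against 202 in the main fit. The covariate brought the median to 0.029 at room temperature and 0.16 in WT. Array weights turned the median to -0.48 with cold in KO and to -0.22 between genotypes in the cold. Over the 26 members with a mean of at least 5, the mean was 6.13 on WT room temperature replicate 2, 7.04 on WT cold replicate 2 and 7.59 on WT cold replicate 3. The rise of Abra with cold in KO passed under all 21 alternatives. The correlations of deviations between same-numbered arrays ran from -0.31 to 0.26. They were not set against those of differently numbered arrays, so whether the replicate numbers pair the arrays was not settled. The block was kept as an alternative. Signals near the array median limit what can be said of low genes.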
